A study of Mus musculus with 18 samples.

Results

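Chemokines and their receptors were followed in liver messenger RNA from old female mice given ouabain, old female mice given saline vehicle, and young female mice. A row of the count table was taken as a member when its Ensembl identifier mapped to a symbol starting with Ccl, Cxcl, Cx3cl or Xcl and a number (ligands), or with Ccr, Cxcr, Cx3cr or Ackr and a number (receptors). Of 37620 genes in the table, 57 matched, 35 ligands and 22 receptors, and 44 of them had at least 10 counts in all 18 libraries together (27 ligands and 17 receptors). Of the other 13, Ccl1 and Ccl26 had no count in any library, and Ccl11, Ccl17, Ccl20, Cxcl3, Cxcl15, Cxcl17, Ccr6, Ccr8, Ccr10, Ccr1l1 and Cxcr1 had fewer than 10 counts in total. There were 6 libraries of each group. The old mice were 21 to 22 months of age when treatment began and 24 months when sampled. Ouabain, a cardiac glycoside that inhibits the sodium-potassium pump and is used experimentally to kill senescent cells, was dosed at 1 mg/kg in weeks of 4 treatments, each separated from the next by 2 weeks without treatment, over 12 weeks, and the livers were collected 3 days after the last week of dosing. The vehicle mice followed the same schedule, and the young mice were 7 weeks of age with no treatment named in the labels, so that age and handling cannot be told apart in any comparison with them. The sources used here do not give the strain. Libraries held 4201251 counts (ouabain replicate 5) to 11113307 counts (young replicate 2), and all but the shallowest held at least 7527846.

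Chemokines are small secreted proteins that bind G protein-coupled receptors on leukocytes and direct their movement into and within tissues. CC ligands such as Ccl2 and Ccl5 mainly draw monocytes and T cells, CXC ligands with an ELR motif draw neutrophils, interferon-induced CXC ligands draw T and natural killer cells that carry Cxcr3, and homeostatic ligands position lymphocytes and other cells in resting tissue. In the liver, hepatocytes, sinusoidal endothelial cells, stellate cells and macrophages can all make chemokines, and the Ccl2 and Ccr2 pair is known for bringing monocytes into injured liver.

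Ligands that draw monocytes, neutrophils, T cells and B cells, and 5 chemokine receptors of leukocytes, were higher in old vehicle livers than in young livers. In ouabain livers most members had fitted values below those of vehicle livers, but 2 of them passed the test. Values are CPM, the share of a library's counts scaled to a common total with TMM. Differences are log2 fold changes, and a call is a Benjamini-Hochberg adjusted p below 0.05 in edgeR's quasi-likelihood test over all 14226 genes tested. Of the 44 members, 27 (17 ligands and 10 receptors) had enough counts to be tested. In ouabain against vehicle livers, 2 of the 27 fell, the ligand Ccl2 and its receptor Ccr2, beside 0.851% of all genes tested, and none rose, beside 0.991% of all genes tested. At an unadjusted p below 0.05 the same edgeR test had 12 members lower, beside 10.8% of all genes tested, and 0 higher, beside 9.31%. DESeq2 called 4 lower at the adjusted threshold (Ccl2, Ccr2, Cxcl1 and Cxcr4), beside 2.33% of all genes. The median log2 fold change was -0.58 over the tested members and -0.0087 over all genes tested, and 21 of the 27 were below 0. In vehicle against young livers, 16 of the 27 rose (11 ligands and 5 receptors), beside 10.9% of all genes tested, and none fell, beside 8.32% of all genes tested. At an unadjusted p below 0.05 in edgeR 19 were higher, beside 16.4% of all genes, and 1 was lower, beside 15.5%. DESeq2 called 1 lower at the adjusted threshold, Cxcl12, beside 9.09% of all genes. The median log2 fold change was 1.23 over the members and -0.0073 over all genes tested. In ouabain against young livers, 2 rose, Ccl5 and Cx3cr1, beside 0.738% of all genes tested, and none fell, beside 0.387%. The counts at an unadjusted p below 0.05 in edgeR were 9 higher, beside 8.85% of all genes, and 0 lower, beside 7.61%. DESeq2 called 5 higher (Ccl5, Cxcl13, Cxcl14, Cx3cr1 and Cxcr4), beside 1.94% of all genes. The median log2 fold change was 0.56 over the members and -0.0066 over all genes tested. Each comparison shares 6 libraries with each of the others, so their values are given side by side and not as independent evidence of one another.

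How far the single livers of the groups separated was counted next. All 6 ouabain libraries were below all 6 vehicle libraries for 1 of the 27 members, Ccl2, beside 0.928% of all genes tested. All 6 vehicle libraries were above all 6 young libraries for 8 members (Ccl2, Ccl5, Cxcl9, Cxcl14, Cxcl16, Ccr2, Cx3cr1 and Cxcr4), beside 4.59% of all genes tested. All 6 ouabain libraries were above all 6 young libraries for 3 members (Ccl5, Cxcl9 and Cx3cr1), beside 1.48% of all genes tested. The filter on low counts asked for about 1.02 CPM in 6 libraries, and 5 tested members (Ccl2, Ccl19, Cx3cl1, Ccr4 and Cxcr6) reached it only with vehicle libraries counted, so that their place among the tested genes is not independent of being high there. The other 22 reached it without the vehicle libraries, and 13 of these rose in vehicle against young livers. Of the 13, Cxcl14 and Ccr2 reached it in 5 young libraries, Ccl5 and Cxcl13 in 2, Cxcr4 in 1 and Cx3cr1 in 0. These needed old libraries to be tested, so the same limit holds for them in comparisons with young livers. It includes Ccl5 and Cx3cr1 in ouabain against young livers. Of the 22, 1, Ccr2, fell in ouabain against vehicle livers, and 0 had all ouabain libraries below all vehicle libraries, since Ccl2 is among the 5.

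**Figure D1:**
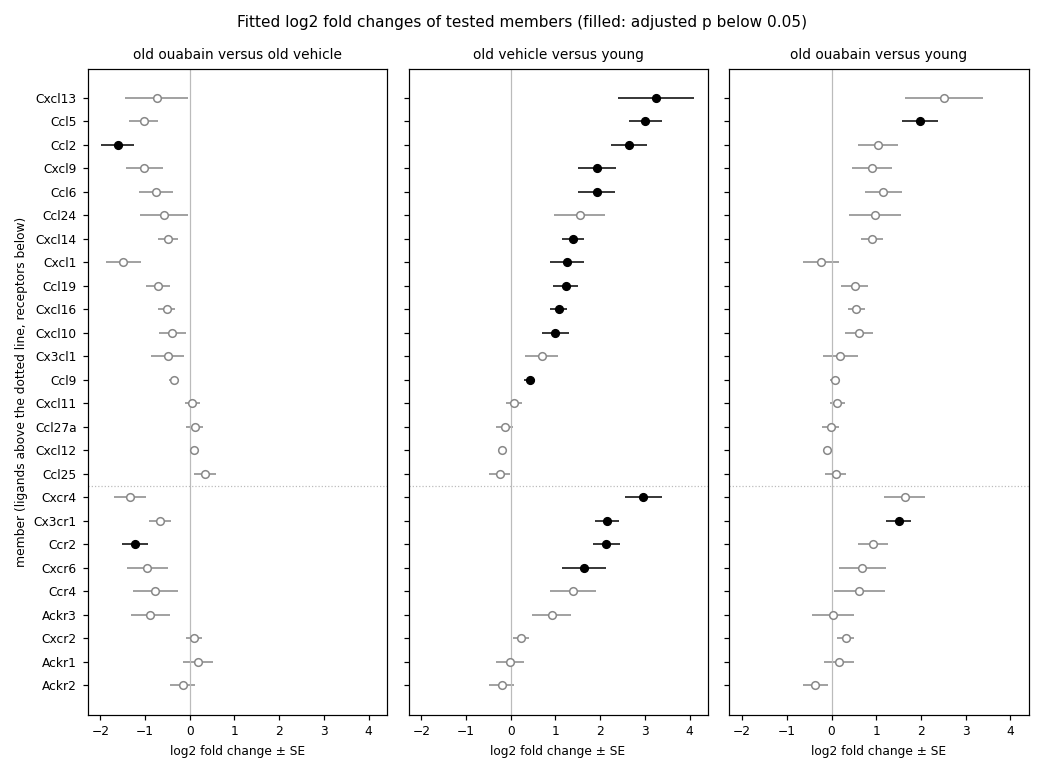
Fitted log2 fold change with its approximate standard error (x axis) of 26 tested ligands and receptors (y axis), with 1 panel per comparison and filled points for an edgeR adjusted p below 0.05. In ouabain against vehicle livers 2 points are filled, both below 0, in vehicle against young livers 15 are filled, all above 0, and in ouabain against young livers 2 are filled, both above 0.

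**Figure D2:**
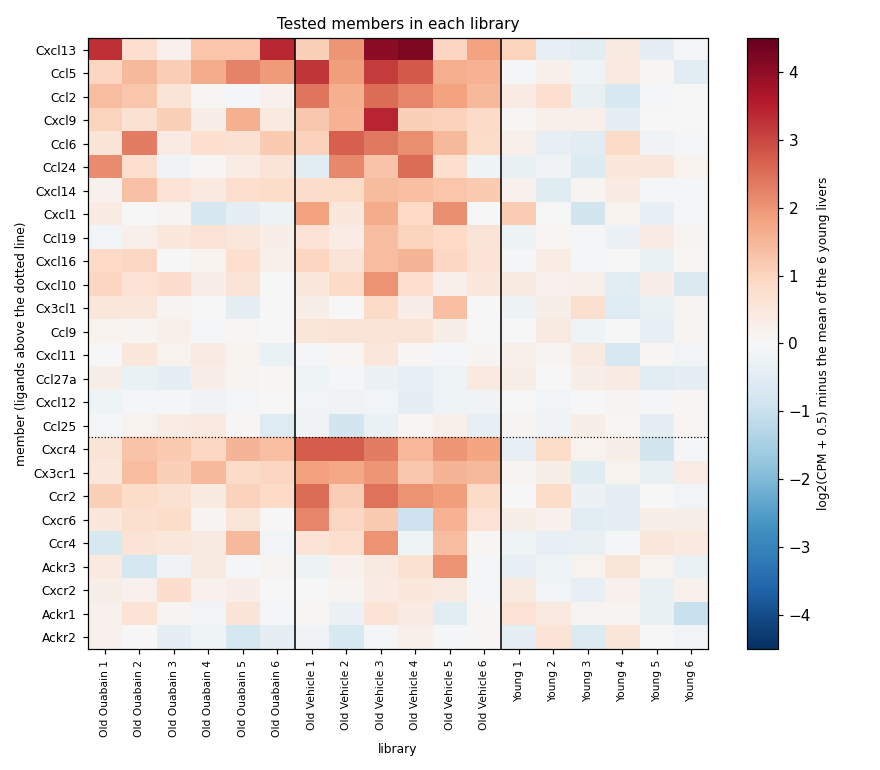
Log2 of CPM plus 0.5 in each library minus the mean of the 6 young livers (colour), for 26 tested members (rows) in the 18 libraries (columns). Red fills much of the vehicle columns for Cxcl13, Ccl5, Ccl2, Cxcr4 and Ccr2, the ouabain columns are paler in most of these rows, and Cxcl9 stands out in vehicle replicate 3.

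The livers also differed in the messenger RNA of leukocytes, measured with lists of cell type markers that hold no chemokine or chemokine receptor. Monocyte and recruited macrophage markers (12 genes, 11 tested, such as Itgam, Ly6c2 and Lyz2) summed to 124 CPM at the lowest, 198 at the median and 365 at the highest in ouabain livers, 207, 300.2 and 606 CPM in vehicle livers, and 86.0, 99.6 and 115 CPM in young livers. All 11 rose in vehicle against young livers, beside 10.9% of all genes tested. In ouabain against vehicle livers 2, Itgax and Ms4a7, fell, beside 0.851%, and 9 of the 11 were lower at an unadjusted p below 0.05 in edgeR. Lyz2 and Csf1r weigh most in the sum, with means of 180 and 94.4 CPM in vehicle livers. Neither was called in ouabain against vehicle livers (edgeR adjusted p = 0.273 and 0.431). Neutrophil markers (10 genes, 8 tested) summed to 15.2, 21.7 and 37.4 CPM in ouabain livers, 18.3, 46.5 and 90.4 CPM in vehicle livers, and 4.11, 8.86 and 11.3 CPM in young livers, and all 8 tested rose in vehicle against young livers. T cell markers (10 genes, 5 tested, all 5 higher in vehicle than in young livers) summed to 6.14, 8.23 and 14.6 CPM in ouabain livers, 5.83, 11.2 and 36.1 CPM in vehicle livers, and 3.13, 4.03 and 4.74 CPM in young livers. Natural killer cell markers (10 genes, 4 tested, all 4 higher in vehicle than in young livers) summed to 6.18, 6.84 and 12.3 CPM in ouabain livers, 6.95, 10.4 and 26.2 CPM in vehicle livers, and 2.88, 4.48 and 5.11 CPM in young livers. Dendritic cell markers (10 genes, 7 tested, 5 of them higher in vehicle than in young livers) summed to 90.7, 136 and 157 CPM in ouabain livers, 109, 174 and 397 CPM in vehicle livers, and 51.0, 55.9 and 72.4 CPM in young livers. The ouabain and vehicle ranges overlap in all 5 lists, and in all 5 every old library is above every young one. B cell markers (10 genes, 7 tested, 3 of them higher in vehicle than in young livers) summed to 8.27, 18.6 and 58.9 CPM in ouabain livers, 8.71, 22.6 and 47.6 CPM in vehicle livers, and 6.96, 9.45 and 11.9 CPM in young livers, and the 3 groups overlap. Kupffer cell markers, of the resident liver macrophage, summed to 418, 479 and 943 CPM in ouabain livers, 482, 774 and 1754 CPM in vehicle livers, and 318, 378 and 438 CPM in young livers, with 6 of 10 higher in vehicle than in young livers. None of the tested neutrophil, T cell, natural killer, Kupffer, dendritic or B cell markers was called between ouabain and vehicle livers. In that order, 5 of 8, 2 of 5, 2 of 4, 4 of 10, 3 of 7 and 1 of 7 were lower at an unadjusted p below 0.05 in edgeR. The share over all genes tested was 10.8%. Hepatocyte markers such as Alb and Apoa1 summed to 109672, 124981 and 133450 CPM in ouabain livers, 97679, 128111 and 142665 CPM in vehicle livers, and 105132, 141019 and 153848 CPM in young livers. Of the 10, Tat rose, beside 10.9% of all genes tested, and Ttr and Serpina1a fell, beside 8.32%, in vehicle against young livers. None was called in ouabain against vehicle livers. There 1 was higher, beside 9.31%, and 2 were lower, beside 10.8%, at an unadjusted p below 0.05 in edgeR. Ttr alone of the 10 had all 6 ouabain libraries above all 6 vehicle libraries, beside 160 of all 14226 genes tested. In all 7 leukocyte lists the median sum was higher in vehicle than in ouabain livers and lowest in young livers. Single B cell markers differed from their sum, with 5 of the 7 tested above 0 on the log2 scale in ouabain against vehicle livers (median 0.19). The medians of 15 of the 16 members called in vehicle against young livers also had the order of the sums, all but Cxcl1. These 16 were chosen for being higher in vehicle than in young livers, so that part of the order was fixed by the choice. Several of the markers called in vehicle against young livers reached the filter on low counts only with vehicle libraries counted. Among them are Cd3d, Cd3g, Cd8a, Cd8b1, Gpnmb and Camp. Their place among the tested genes is not independent of being high in vehicle livers. The part of the listed cell types in the results was not tested. In whole tissue fewer cells of a type and less RNA per cell cannot be told apart.

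**Figure D3:**
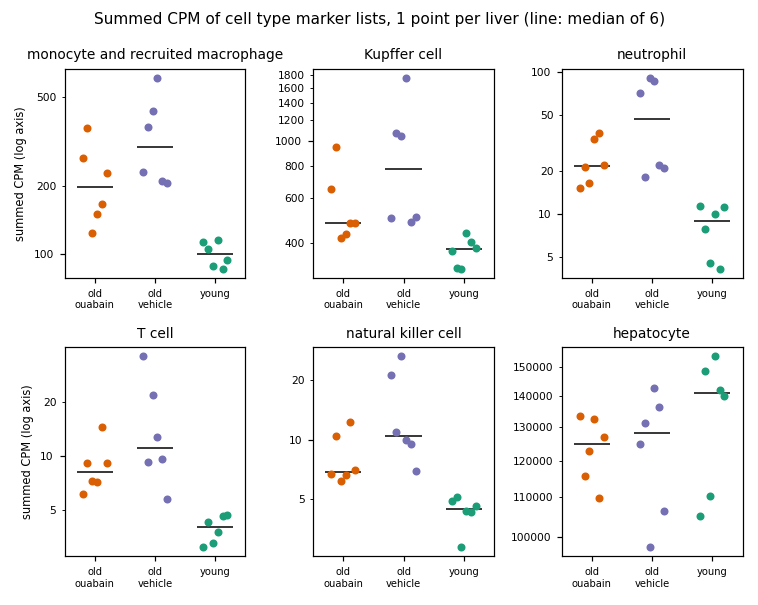
Summed CPM of 6 cell type marker lists (y axes, log scale), 1 point per liver with a line at the median of 6, for ouabain, vehicle and young livers. The monocyte and macrophage sum is 124 to 365 CPM in ouabain livers, 207 to 606 CPM in vehicle livers and 86.0 to 115 CPM in young livers, whereas the hepatocyte sums of the 3 groups overlap.

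Among the CC ligands that draw monocytes and lymphocytes, 10 had at least 10 counts and 5 were tested. Of the 5, 4 rose in vehicle against young livers (Ccl2, Ccl5, Ccl6 and Ccl9), beside 10.9% of all genes tested. Ccl2 fell in ouabain against vehicle livers, beside 0.851%, and Ccl5 rose in ouabain against young livers, beside 0.738%. Median log2 fold changes of the 5 were -0.76 in ouabain against vehicle, 1.92 in vehicle against young and 1.03 in ouabain against young livers.

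Ccl2 (ENSMUSG00000035385) is the main attractant of Ccr2-bearing monocytes. It had 0.464 CPM at the lowest, 0.811 at the median and 2.11 at the highest in ouabain livers, 2.26, 3.50 and 5.17 CPM in vehicle livers, and 0.114, 0.466 and 1.19 CPM in young livers. Every vehicle liver is above every ouabain and every young liver, with vehicle replicates 3 and 1 highest, while the ouabain range reaches into the young one. In counts, these values rest on 64 reads over the 6 ouabain libraries, 221 over the vehicle libraries and 33 over the young libraries. The log2 fold change was -1.61 (SE 0.37, edgeR adjusted p = 0.0285) in ouabain against vehicle livers, and 2.65 (SE 0.40, adjusted p = 0.000148) in vehicle against young livers. The difference was 1.03 (SE 0.45, adjusted p = 0.252) in ouabain against young livers. The fall stayed between -1.91 and -1.47 under all alternatives, but its adjusted p was above 0.05 without ouabain replicate 3, 4, 5 or 6 or vehicle replicate 1 or 3 (0.0581 to 0.0801), without vehicle replicate 4 and ouabain replicate 5 together (0.09), and with all libraries thinned to the shallowest (0.0888). Ccl2 is one of the 5 members that reached the filter only through vehicle libraries.

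Ccl5 (RANTES, ENSMUSG00000035042) is made by T and natural killer cells among others and a ligand of Ccr1 and Ccr3. It had 2.20, 3.59 and 6.04 CPM (lowest, median, highest) in ouabain livers, 3.57, 6.71 and 12.2 CPM in vehicle livers, and 0.499, 0.878 and 1.37 CPM in young livers. All 12 old livers are above all young livers, and the ouabain and vehicle ranges overlap. Vehicle replicates 1 and 3, the highest for Ccl5, also had the highest T cell marker sums of all libraries (36.1 and 22.0 CPM), whose part in the result was not tested. On the log2 scale Ccl5 differed by -1.03 (SE 0.32, edgeR adjusted p = 0.0903) in ouabain against vehicle livers, and 3.01 (SE 0.37, adjusted p = 2.93e-05) in vehicle against young livers. The difference was 1.98 (SE 0.39, adjusted p = 0.0179) in ouabain against young livers. The last of these did not pass in several other settings, such as without young replicate 3 (adjusted p = 0.0508) and with limma voom (0.093), and the first passed without vehicle replicate 6 (adjusted p = 0.0327).

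Ccl6 (ENSMUSG00000018927) is a ligand of Ccr1 made by myeloid cells in rodents. It had 8.02, 10.5 and 32.4 CPM in ouabain livers, 11.4, 22.7 and 42.8 CPM in vehicle livers, and 4.27, 5.62 and 11.4 CPM in young livers. The groups overlap, with ouabain replicate 2 far above the other ouabain livers and young replicate 4 as high as the lowest vehicle liver. It rose in vehicle against young livers, by 1.92 on the log2 scale (SE 0.41, edgeR adjusted p = 0.00389), whereas ouabain against vehicle (-0.76, SE 0.39, adjusted p = 0.278) and ouabain against young (1.16, SE 0.42, adjusted p = 0.186) did not pass. Ccl9, a related Ccr1 ligand of rodents, had 103, 117 and 129 CPM in ouabain livers, 113, 162 and 165 CPM in vehicle livers, and 85.4, 111 and 146 CPM in young livers. Vehicle replicates 1, 2, 3 and 4 stand together above all other livers, and replicates 5 and 6 lie within the range of the young. Its rise was small, at 0.42 on the log2 scale (SE 0.12, edgeR adjusted p = 0.0135) in vehicle against young livers. In ouabain against vehicle livers Ccl9 differed by -0.35 (SE 0.12, adjusted p = 0.104), which passed without vehicle replicate 6 (0.0339). In ouabain against young livers it differed by 0.07 (SE 0.12, adjusted p = 0.815). Ccl24 (eotaxin-2), which acts on eosinophils through Ccr3, was not called in any comparison, with log2 fold changes of -0.58, 1.55 and 0.97 and 1.84 to 10.7 CPM in ouabain livers, 1.31 to 14.2 CPM in vehicle livers and 1.19 to 3.13 CPM in young livers. DESeq2 called it higher in vehicle than in young livers, as did edgeR without ouabain replicate 1 or vehicle replicate 1 or 6.

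The other 5 CC ligands of this kind had too few counts to be tested, and each had most of its counts in vehicle livers. Ccl7, a further Ccr2 ligand, and Ccl8, which in mice acts on Ccr8, had 23 and 11 counts over the ouabain libraries, 47 and 38 over the vehicle libraries, and 11 and 1 over the young libraries. Ccl3 and Ccl4, the macrophage inflammatory proteins, had 8 and 17 counts in ouabain livers, 24 and 36 in vehicle livers, and 6 and 8 in young livers. Ccl12, a further Ccr2 ligand of mice, had 4, 7 and 1 counts in ouabain, vehicle and young livers. Of all 17 members with at least 10 counts that were not tested, with 12 to 211 counts in total, 15 had their highest count in vehicle livers. With no filter on low counts, 7 of the 17 were called higher in vehicle than in young livers (Ccl4, Ccl7, Ccl8, Ccl22, Cxcl5, Ccr1 and Cxcr3), beside 6.36% of the 25020 genes then tested, and 0 were called in the other comparisons. That share also covers genes with fewer than 10 counts in total, which are harder to call, so it is not a like comparison for the 17.

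**Figure D4:**
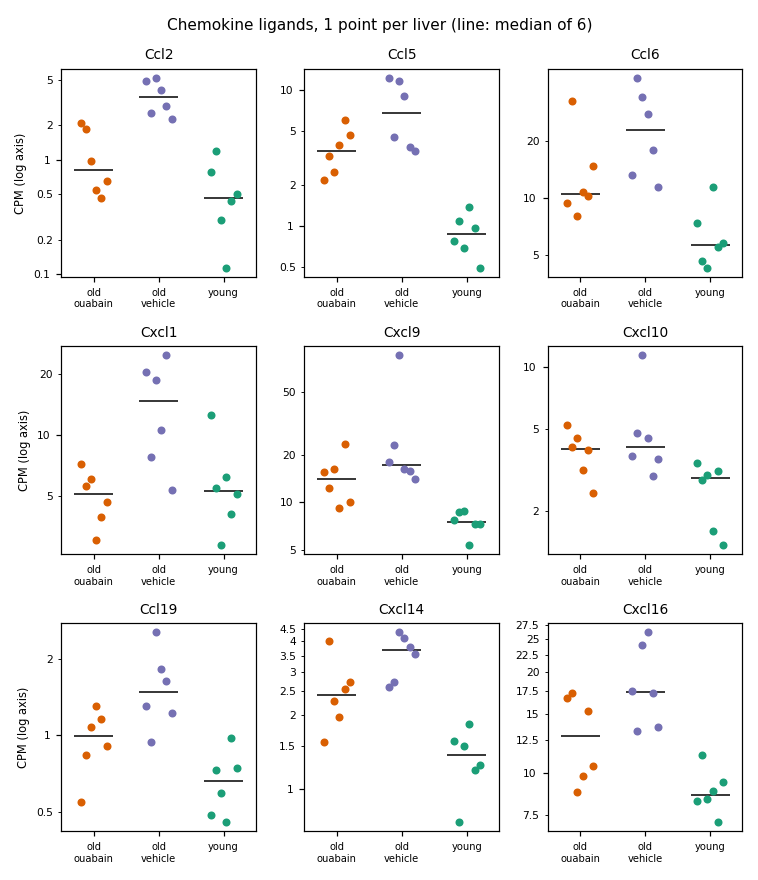
CPM (y axes, log scale) of 9 ligands in each liver, with a line at the median of 6, for ouabain, vehicle and young livers. Ccl2 is 0.464 to 2.11 CPM in ouabain livers, 2.26 to 5.17 CPM in vehicle livers and 0.114 to 1.19 CPM in young livers, and Cxcl9 reaches 85.1 CPM in vehicle replicate 3.

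The interferon-induced Cxcr3 ligands Cxcl9 and Cxcl10, which lie near each other, and the neutrophil attractant Cxcl1 are shown with the bases before their transcription starts, since they are known targets of interferon and NF-kB signalling and all 3 rose in vehicle against young livers. The windows hold the 250 bases before the start, from RefSeq on GRCm38.p6, written 5′ to 3′ on the strand of the gene, while the counts were made on mm9, so these coordinates belong to GRCm38.p6 alone. Capitals mark matches to GGNNTTTCC (NF-kB-like) and GAAANNGAA (interferon response element-like), searched on both strands. No matches overlap in the windows shown. 
Cxcl9, chr5:92328080-92328329, minus strand: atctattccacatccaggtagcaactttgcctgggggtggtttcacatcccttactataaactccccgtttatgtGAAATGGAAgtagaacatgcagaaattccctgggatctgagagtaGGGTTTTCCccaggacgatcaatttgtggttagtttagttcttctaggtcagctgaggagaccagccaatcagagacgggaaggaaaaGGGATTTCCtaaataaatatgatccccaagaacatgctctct
Cxcl10, chr5:92348890-92349139, minus strand: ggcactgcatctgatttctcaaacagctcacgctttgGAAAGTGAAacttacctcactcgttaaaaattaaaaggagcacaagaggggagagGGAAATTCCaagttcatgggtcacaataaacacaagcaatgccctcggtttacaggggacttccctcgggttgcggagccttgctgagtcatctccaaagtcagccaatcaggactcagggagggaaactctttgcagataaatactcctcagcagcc
Cxcl1, chr5:90890995-90891244, plus strand: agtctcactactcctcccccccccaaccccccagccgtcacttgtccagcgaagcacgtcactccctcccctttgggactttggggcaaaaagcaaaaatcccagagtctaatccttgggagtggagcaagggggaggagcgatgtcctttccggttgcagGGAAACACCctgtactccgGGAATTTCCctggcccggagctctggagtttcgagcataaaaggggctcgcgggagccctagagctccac

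Cxcl9 had NF-kB-like matches 130 and 42 bases before the start and an interferon-like match at 175. Cxcl10 had an NF-kB-like match at 158 and an interferon-like match at 213, and Cxcl1 had NF-kB-like matches at 89 and 70. The table held windows for 32 of the 44 members, and those for Ccl2 and Ccl5 were not among them. Over the 35 windows of these 32, 7 (20.0%) held the NF-kB-like letters, beside 1619 of all 32851 windows (4.93%), and 6 (17.1%) held the interferon-like letters, beside 2342 (7.13%). The letters of a gamma-activated site (TTCNNNGAA) were in 1 member window (2.86%), that of Cxcl14, beside 2306 of all windows (7.02%). The other members with an NF-kB-like match were Ackr4, Ccl9, Ccr3 and Cxcl2, and the others with an interferon-like match were Ccl3, Ccl19, Ccr2 and Cxcl14. A match describes the letters in the window and does not show that a factor binds there.

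Of the 3 Cxcr3 ligands, 2 rose in vehicle against young livers, beside 10.9% of all genes tested, and none was called in the other comparisons. At an unadjusted p below 0.05 in edgeR, 1 was lower in ouabain against vehicle livers, beside 10.8%. In ouabain against young livers 0 were higher, beside 8.85%, and 0 lower, beside 7.61%. Cxcl9 (ENSMUSG00000029417) is induced by interferon gamma. It had 9.14, 13.9 and 23.2 CPM (lowest, median, highest) in ouabain livers, 14.0, 17.2 and 85.1 CPM in vehicle livers, and 5.38, 7.48 and 8.75 CPM in young livers. Every old liver is above every young liver, and vehicle replicate 3 is far above the other vehicle livers, which run from 14.0 to 23.0 CPM. On the log2 scale Cxcl9 differed by -1.02 (SE 0.41, edgeR adjusted p = 0.184) in ouabain against vehicle livers, and 1.93 (SE 0.43, adjusted p = 0.00509) in vehicle against young livers. The difference was 0.91 (SE 0.44, adjusted p = 0.314) in ouabain against young livers. Without vehicle replicate 3, the difference was -0.30 in ouabain against vehicle livers and 1.21 in vehicle against young livers, the second still called, and ouabain against young livers then passed (adjusted p = 0.0242). Vehicle replicate 3 also had the highest natural killer cell, neutrophil, dendritic cell and platelet marker sums of all libraries (26.2, 90.4, 397 and 13.1 CPM), and their part in its Cxcl9 value was not tested.

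Cxcl10 (IP-10, ENSMUSG00000034855) is likewise induced by interferons. It had 2.46, 4.02 and 5.23 CPM in ouabain livers, 2.97, 4.11 and 11.4 CPM in vehicle livers, and 1.37, 2.91 and 3.42 CPM in young livers. The 3 groups overlap, and the highest value is again vehicle replicate 3. It rose in vehicle against young livers (log2 fold change 0.99, SE 0.30, edgeR adjusted p = 0.0261), which did not pass without vehicle replicate 3 (0.60, adjusted p = 0.0882), young replicate 4 (0.0588) or young replicate 6 (0.0609), with limma voom (0.0514) or with only the 12 libraries compared (0.0576). In ouabain against vehicle livers it was -0.39 (SE 0.30, adjusted p = 0.478), and 0.01 without vehicle replicate 3. Cxcl11, a ligand shared by Cxcr3 and the atypical receptor Ackr3, had log2 fold changes of 0.06, 0.07 and 0.13 in the 3 comparisons (SE 0.17 each), none called. Cxcr3 itself, the receptor of T and natural killer cells for these ligands, had 38 counts over the ouabain libraries, 95 over the vehicle libraries and 10 over the young libraries and was not tested with the filter.

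Cxcl1 (ENSMUSG00000029380) is an ELR ligand of Cxcr2 that draws neutrophils. It had 3.05, 5.12 and 7.24 CPM in ouabain livers, 5.36, 14.6 and 24.7 CPM in vehicle livers, and 2.88, 5.30 and 12.6 CPM in young livers. Vehicle replicates 5, 1 and 3 are highest, vehicle replicate 6 lies within the ouabain range, and young replicate 1 is above 3 of the vehicle livers. The log2 fold change was -1.49 in ouabain against vehicle livers (SE 0.39, edgeR adjusted p = 0.0588), with 6 of 6 ouabain livers below the vehicle median. It passed in DESeq2 (adjusted p = 0.00254) and without ouabain replicate 1 (0.045), vehicle replicate 6 (0.0184) or young replicate 1 (0.0324). In vehicle against young livers it rose by 1.26 on the log2 scale (SE 0.38, adjusted p = 0.0268), a call that ended without vehicle replicate 1, 3 or 5 or young replicate 3, 5 or 6 (0.0557 to 0.066), with no filter (0.0577), with the 12 libraries alone (0.069) and on thinning (0.0556). In ouabain against young livers the value was -0.23 (SE 0.41, adjusted p = 0.825). Of the other ELR ligands, Cxcl2 had 8, 15 and 3 counts and Cxcl5 had 9, 33 and 4 counts in ouabain, vehicle and young livers. Cxcr2, the receptor of neutrophils for these ligands, was not called in any comparison, with 3.63 to 6.83 CPM in ouabain livers, 3.48 to 5.37 CPM in vehicle livers and 2.78 to 5.09 CPM in young livers, and log2 fold changes of 0.09, 0.23 and 0.32.

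Of 10 homeostatic and tissue ligands with at least 10 counts, 8 were tested. Of these, 4 rose in vehicle against young livers (Ccl19, Cxcl13, Cxcl14 and Cxcl16), beside 10.9% of all genes tested. None was called in the other comparisons. At an unadjusted p below 0.05 in edgeR, 3 were lower in ouabain against vehicle livers, beside 10.8%. In ouabain against young livers 3 were higher, beside 8.85%. Cxcl16 (ENSMUSG00000018920) is a membrane-bound ligand of Cxcr6. It had 8.78, 12.9 and 17.3 CPM in ouabain livers, 13.3, 17.4 and 26.2 CPM in vehicle livers, and 7.13, 8.58 and 11.3 CPM in young livers. Its vehicle livers are all above the young livers, and the ouabain livers overlap with both. The log2 fold change was -0.52 (SE 0.19, edgeR adjusted p = 0.142) in ouabain against vehicle livers, and 1.07 (SE 0.19, adjusted p = 0.000738) in vehicle against young livers. The difference was 0.56 (SE 0.20, adjusted p = 0.174) in ouabain against young livers. Cxcl14 (ENSMUSG00000021508) is a tissue chemokine of epithelial and stromal cells. It had 1.56, 2.41 and 4.00 CPM in ouabain livers, 2.61, 3.68 and 4.36 CPM in vehicle livers, and 0.731, 1.37 and 1.83 CPM in young livers. As for Cxcl16, the vehicle livers all exceed the young ones and the ouabain livers overlap with both. The log2 fold change was -0.49 (SE 0.23, adjusted p = 0.235), 1.39 (SE 0.24, adjusted p = 0.000452) and 0.90 (SE 0.25, adjusted p = 0.083) in the same order of comparisons.

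Ccl19 (ENSMUSG00000071005) is a Ccr7 ligand that guides dendritic cells and T cells in lymphoid tissue. It had 0.550, 0.995 and 1.31 CPM in ouabain livers, 0.939, 1.47 and 2.53 CPM in vehicle livers, and 0.458, 0.663 and 0.973 CPM in young livers. The groups overlap, with vehicle replicate 3 highest and the lowest vehicle liver just under the highest young one. It rose in vehicle against young livers by 1.23 on the log2 scale (SE 0.28, edgeR adjusted p = 0.00437), with -0.71 (SE 0.27, adjusted p = 0.154) in ouabain against vehicle livers and 0.51 (SE 0.31, adjusted p = 0.419) in ouabain against young livers. A pseudogene of it, Ccl19-ps1, had 14, 6 and 5 counts in ouabain, vehicle and young livers, and the sources used here do not say how reads shared by the pair were divided. Cxcl13, the B cell attractant of lymphoid follicles, had 1.30, 3.26 and 16.1 CPM in ouabain livers, 2.56, 5.40 and 28.3 CPM in vehicle livers, and 0.596, 0.864 and 2.64 CPM in young livers. Ouabain replicates 1 and 6 and vehicle replicates 3 and 4 stand apart at the top, so the spread within each old group is wide. It rose in vehicle against young livers by 3.25 on the log2 scale (SE 0.85, edgeR adjusted p = 0.0136) and was 2.51 (SE 0.88, adjusted p = 0.174) in ouabain against young livers and -0.74 (SE 0.70, adjusted p = 0.588) in ouabain against vehicle livers, and the rise did not pass in limma voom.

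Cxcl12, the ligand of Cxcr4 that stromal and sinusoidal endothelial cells make at a steady level, had 316, 337 and 360 CPM in ouabain livers, 271, 319 and 332 CPM in vehicle livers, and 326, 356 and 393 CPM in young livers. The groups overlap, and the log2 fold change was 0.10 (SE 0.07, edgeR adjusted p = 0.428) in ouabain against vehicle livers, and -0.20 (SE 0.07, adjusted p = 0.0584) in vehicle against young livers. The difference was -0.09 (SE 0.07, adjusted p = 0.547) in ouabain against young livers. The difference of vehicle from young livers was called lower in DESeq2, in limma voom and without young replicate 2. Cx3cl1, the ligand of Cx3cr1, Ccl25, a gut and thymus ligand of Ccr9, and Ccl27a, a skin ligand of Ccr10, were not called, with log2 fold changes of -0.50, 0.34 and 0.11 in ouabain against vehicle livers and 0.69, -0.25 and -0.14 in vehicle against young livers. Ccl27a has close paralogs in the mouse, so its counts are uncertain. The untested Ccl22, a ligand of Ccr4, had 7, 30 and 2 counts, and Xcl1, made by natural killer and T cells, had 9, 29 and 6 counts, in ouabain, vehicle and young livers.

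Among the CC receptors, Ccr2 rose in vehicle against young livers and fell in ouabain against vehicle livers. Ccr2 (ENSMUSG00000049103) is the receptor of inflammatory monocytes for Ccl2. It had 2.07, 3.00 and 3.58 CPM (lowest, median, highest) in ouabain livers, 3.01, 7.03 and 10.4 CPM in vehicle livers, and 0.916, 1.33 and 2.92 CPM in young livers. Vehicle replicates 1 and 3 are highest, vehicle replicate 6 lies within the ouabain range, and young replicate 2 is above the other young livers. All 6 ouabain livers are below the vehicle median, and all 6 vehicle livers are above every young liver. Its log2 fold change was -1.22 (SE 0.29, edgeR adjusted p = 0.0348) in ouabain against vehicle livers, and 2.14 (SE 0.31, adjusted p = 9.86e-05) in vehicle against young livers. The difference was 0.93 (SE 0.33, adjusted p = 0.172) in ouabain against young livers. The fall stayed between -1.38 and -1.06 under all alternatives, but its adjusted p was above 0.05 in many of them, such as without ouabain replicate 2, 3, 4, 5 or 6 or vehicle replicate 1, 3, 4 or 5 (0.0503 to 0.1), with limma voom (0.0809), with the 12 libraries alone (0.0541) and without vehicle replicate 4 and ouabain replicate 5 together (0.0964).

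Ccr4, a receptor of helper and regulatory T cells for Ccl22, was not called, with log2 fold changes of -0.78 (SE 0.50), 1.40 (SE 0.52, edgeR adjusted p = 0.0664) and 0.62 in ouabain against vehicle, vehicle against young and ouabain against young livers, although DESeq2 called it higher in vehicle than in young livers. The untested CC receptors had 9, 45 and 11 counts for Ccr1, a receptor of myeloid cells, and 21, 49 and 23 counts for Ccr7, a receptor of lymphocytes and mature dendritic cells, in ouabain, vehicle and young livers. Ccr9, the receptor for Ccl25, had 7, 4 and 7 counts. Ccr3, the eotaxin receptor of eosinophils, had 15, 179 and 17 counts, of which 170 were in vehicle replicate 2 alone.

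Of 6 CXC and CX3C receptors with at least 10 counts, 4 were tested. Of these, 3 rose in vehicle against young livers (Cxcr4, Cx3cr1 and Cxcr6), beside 10.9% of all genes tested. In ouabain against young livers 1 rose (Cx3cr1), beside 0.738%. None was called in ouabain against vehicle livers, where 2 were lower at an unadjusted p below 0.05 in edgeR, beside 10.8%. Cxcr4 (ENSMUSG00000045382) is the Cxcl12 receptor of most leukocytes. It had 0.825, 1.60 and 2.09 CPM in ouabain livers, 2.01, 3.51 and 5.44 CPM in vehicle livers, and 0, 0.436 and 1.10 CPM in young livers. Every vehicle liver is above every young liver, and among the vehicle livers replicate 4 alone lies below the highest ouabain liver. The 0 is in young replicate 5, where a count of 0 allows up to 0.324 CPM (3 counts). Its log2 fold change was -1.34 (SE 0.35, edgeR adjusted p = 0.0553) in ouabain against vehicle livers, and 2.97 (SE 0.41, adjusted p = 5.83e-05) in vehicle against young livers. The difference was 1.63 (SE 0.45, adjusted p = 0.0798) in ouabain against young livers. The first passed in DESeq2 (0.00929), with the 12 libraries alone (0.0321) and without vehicle replicate 4 or 6 or young replicate 2 or 5 (0.0325 to 0.0416), and the last passed in DESeq2 (0.0118) and without young replicate 2 (0.0259).

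Cx3cr1 (ENSMUSG00000052336) is the fractalkine receptor of monocytes and many macrophages. It had 1.19, 1.88 and 2.72 CPM in ouabain livers, 2.21, 3.13 and 4.15 CPM in vehicle livers, and 0.298, 0.792 and 0.998 CPM in young livers. All 12 old livers are above all 6 young livers, and the ouabain and vehicle ranges overlap. On the log2 scale Cx3cr1 differed by -0.66 (SE 0.24, edgeR adjusted p = 0.138) in ouabain against vehicle livers, and 2.16 (SE 0.27, adjusted p = 2.62e-05) in vehicle against young livers. The difference was 1.50 (SE 0.29, adjusted p = 0.0141) in ouabain against young livers. Cxcr6 (ENSMUSG00000048521) is the Cxcl16 receptor of liver natural killer T and resident memory T cells. It had 0.648, 1.13 and 1.52 CPM in ouabain livers, 0.0959, 1.91 and 4.83 CPM in vehicle livers, and 0.298, 0.843 and 0.881 CPM in young livers. The vehicle livers spread widest, with replicate 1 the highest and replicate 4 the lowest of all 18 libraries. It rose in vehicle against young livers by 1.64 on the log2 scale (SE 0.49, edgeR adjusted p = 0.0225), a call that ended without vehicle replicate 1 (0.0706) or young replicate 3 (0.0546) or 4 (0.0501) and with limma voom (0.273). Its log2 fold change was -0.95 (SE 0.46, adjusted p = 0.257) in ouabain against vehicle livers and 0.69 (SE 0.53, adjusted p = 0.549) in ouabain against young livers. Cxcr5, the follicular receptor of B cells for Cxcl13, was not tested and had 41, 50 and 12 counts in ouabain, vehicle and young livers.

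**Figure D5:**
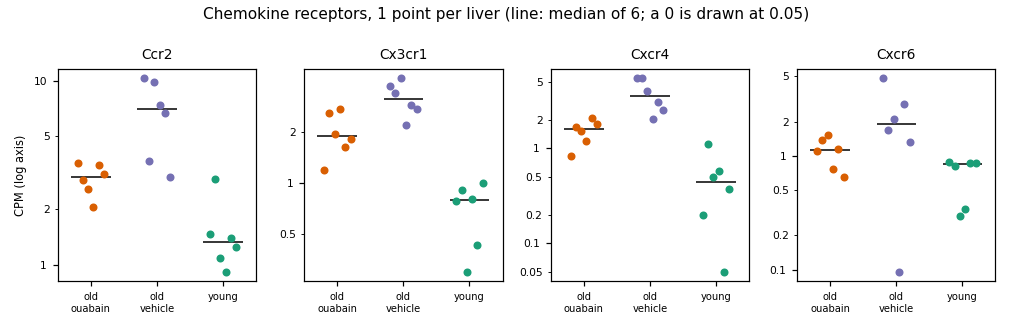
CPM (y axes, log scale, a 0 drawn at 0.05) of 4 receptors in each liver, with a line at the median of 6, for ouabain, vehicle and young livers. Ccr2 is 2.07 to 3.58 CPM in ouabain livers, 3.01 to 10.4 CPM in vehicle livers and 0.916 to 2.92 CPM in young livers, and vehicle replicate 4 is the lowest point for Cxcr6.

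The atypical receptors, which bind chemokines without classical G protein signalling and scavenge or transport them, showed no call in 3 tested of 4. At an unadjusted p below 0.05 in edgeR, 1 was higher in vehicle against young livers, beside 16.4% of all genes tested. Ackr1, the erythrocyte and venular receptor, had log2 fold changes of 0.18, -0.02 and 0.17 in ouabain against vehicle, vehicle against young and ouabain against young livers. Ackr2, a scavenger of CC ligands, had -0.16, -0.21 and -0.36 in the same order. Ackr3, a scavenger of Cxcl12 and Cxcl11, had -0.88 (SE 0.44, edgeR adjusted p = 0.262), 0.91 (SE 0.43, adjusted p = 0.15) and 0.03. Ackr4, a scavenger of Ccl19 and Ccl25, had 29, 42 and 40 counts in ouabain, vehicle and young livers and was not tested.

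Genes that carry the signal of chemokine receptors inside leukocytes were taken from a list of 40 that holds no member, of which 39 were tested. In ouabain against vehicle livers 1 fell, beside 0.851% of all genes tested, and 0 rose. In vehicle against young livers 25 rose, beside 10.9% of all genes, and 0 fell, and in ouabain against young livers 1 rose, beside 0.738%, and 0 fell. The median log2 fold changes of the list were -0.46, 0.91 and 0.42 in these comparisons, beside -0.0087, -0.0073 and -0.0066 over all genes. At an unadjusted p below 0.05 in edgeR, 20 were lower in ouabain against vehicle livers, beside 10.8% of all genes, and 0 higher (9.31%). The counts were 27 higher, beside 16.4%, and 0 lower, beside 15.5%, in vehicle against young livers. For ouabain against young livers they were 16 higher, beside 8.85%, and 1 lower, beside 7.61%. Gnai1, among the 25 that rose, reached the filter on low counts only with vehicle libraries counted. Its place among the tested genes is not independent of being high there. Rgs1, a GTPase activator that dampens chemokine receptor signalling in lymphocytes and macrophages, had 1.09, 1.66 and 3.58 CPM in ouabain livers, 4.70, 6.11 and 9.52 CPM in vehicle livers, and 0.249, 0.988 and 1.73 CPM in young livers. All 6 vehicle livers are above all ouabain and all young livers. The log2 fold change was -1.70 (SE 0.29, edgeR adjusted p = 0.00462) in ouabain against vehicle livers, a call kept in 18 of 18 fits that left out 1 library and in 9 of 9 other settings, and 2.65 (SE 0.31, adjusted p = 1.04e-05) in vehicle against young livers. Prex1, a Rac activator downstream of G protein beta-gamma subunits, had 7.66, 8.95 and 11.3 CPM in ouabain livers, 10.7, 12.8 and 22.9 CPM in vehicle livers, and 3.74, 4.38 and 4.86 CPM in young livers. All 12 old livers are above all young livers, and its log2 fold change was -0.64 (SE 0.17, adjusted p = 0.0503), 1.72 (SE 0.18, adjusted p = 2.95e-06) and 1.09 (SE 0.18, adjusted p = 0.00647) in ouabain against vehicle, vehicle against young and ouabain against young livers. The first passed in DESeq2 (0.0218), with no filter (0.0468) and without ouabain replicate 2 or vehicle replicate 1, 5 or 6 (0.0244 to 0.0445), and the last did not pass on thinning (0.065). Dock2, the Rac activator that lymphocytes need to migrate, rose by 1.80 on the log2 scale (SE 0.29, adjusted p = 0.000263) in vehicle against young livers and was -0.80 (SE 0.27, adjusted p = 0.113) in ouabain against vehicle livers.

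A second list held related ligands, receptors, decoys and proteases that act on chemokines but do not match the symbols above (18 genes, 17 tested). In ouabain against vehicle livers 1 rose, beside 0.991% of all genes tested, and 1 fell, beside 0.851%. In vehicle against young livers 11 rose, beside 10.9%, and 1 fell, beside 8.32%, and in ouabain against young livers 0 were called. At an unadjusted p below 0.05 in edgeR, 1 was higher (all genes 9.31%) and 8 were lower (10.8%) in ouabain against vehicle livers. For ouabain against young livers these counts were 5 higher, beside 8.85%, and 1 lower, beside 7.61%. There Cd74 passed in DESeq2 (adjusted p = 0.00462), limma voom, with the 12 libraries alone and in 4 of 18 fits without 1 library. Median log2 fold changes were -0.43, 1.30 and 0.59. Xcr1, Mmp9 and Ppbp, among the 11 that rose, reached the filter on low counts only with vehicle libraries counted. Their place among the tested genes is not independent of being high there. Mmp12, the macrophage metalloelastase that cleaves chemokines, had 1.42, 2.00 and 2.57 CPM in ouabain livers, 2.63, 3.93 and 8.36 CPM in vehicle livers, and 1.12, 1.79 and 2.37 CPM in young livers. Every vehicle liver is above every ouabain and young liver. It fell by 1.31 on the log2 scale in ouabain against vehicle livers (SE 0.26, edgeR adjusted p = 0.0155), kept in 18 of 18 fits without 1 library and in 9 of 9 other settings, and rose by 1.41 on the log2 scale (SE 0.26, adjusted p = 0.000782) in vehicle against young livers. Mif, a cytokine that binds Cd74 as well as Cxcr2 and Cxcr4, differed in the opposite direction, with 93.2, 103 and 123 CPM in ouabain livers, 64.3, 75.8 and 85.4 CPM in vehicle livers, and 79.0, 98.2 and 108 CPM in young livers. All ouabain livers are above all vehicle livers, and the ouabain and young livers overlap. Its log2 fold change was 0.46 (SE 0.10, adjusted p = 0.0211) in ouabain against vehicle livers, not passing without ouabain replicate 3 or 6 (0.0737 and 0.0586) or without vehicle replicate 4 and ouabain replicate 5 together (0.0886), and -0.33 (SE 0.10, adjusted p = 0.0203) in vehicle against young livers, not passing without young replicate 6 (0.05003) or without those same 2 libraries (0.0579). Cd74, the invariant chain and Mif receptor, rose by 2.18 on the log2 scale (SE 0.37, adjusted p = 0.000735) in vehicle against young livers, and Xcr1, the dendritic cell receptor for Xcl1, rose by 1.77 on the log2 scale (SE 0.35, adjusted p = 0.00132).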

How the data were processed

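Livers were flash frozen, RNA was taken up in Trizol and libraries were made by standard Illumina methods, per the labels' protocols. Reads were aligned with TopHat2 2.0.11 to mm9 and counted with featureCounts, per the submitters' processing notes. The sources used here do not say how strand, annotation and multi-mapped reads were handled, so overlapping, antisense and closely related genes are uncertain. The authors deposited raw counts, not normalized, for 37620 Ensembl genes in 18 libraries, and 32897 identifiers were matched to symbols in a table of gene names. The design given with the series names 16 old mice, of which 12 are analysed here. The titles number 6 replicates a group, and if these are not separate animals the p-values measure technical spread.

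Genes were kept with edgeR's filter (minimum count 10), which left 14226. All 18 libraries entered 1 edgeR 4.0.16 fit (R 4.3.3, TMM, robust quasi-likelihood F-test, two-sided, Benjamini-Hochberg adjusted p below 0.05), and its common biological coefficient of variation was 0.183. Standard errors are approximate, from the log2 fold change and F. DESeq2 1.42.0, limma 3.58.1 voom, other filters, scaling, library sets and thinning were alternatives. A count of 0 allows up to 3 counts, 0.274 to 0.696 CPM by library after TMM, which covers counting error alone. Libraries within a group differed by a chi-square per gene of 4.88 to 52.5, so no pair agreed within sampling noise.

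Members, role groups, signalling lists and markers were chosen with earlier results of these data known. Values are given in full for each member called in ouabain against vehicle livers and for up to 3 members per role group with the smallest p in vehicle against young livers, and up to 3 genes per direction and comparison are named from the signalling lists. One tested member that these rules select is not reported here by name and stays in the counts. Genes such as Ccl21a, Ccl27b and Ccl28 are not analysed here.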

Additional observations from a re-analysis of the deposited data

Results flagged for a closer look

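In 81 groups of 6 libraries (27 tested members in 3 groups), the highest or lowest library lay apart from the others by more than Dixon's 95% critical value (0.625 of the range) in 11 groups, and chance flags about 1 in 20 groups. In ouabain livers, Ccl24 was 10.7 CPM in replicate 1, against 1.84 to 3.91 CPM in the others. Ccl6 was 32.4 CPM in ouabain replicate 2, against 8.02 to 14.6 CPM in the other ouabain livers, and Cxcr2 was 6.83 CPM in ouabain replicate 3, against 3.63 to 4.64 CPM.

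Vehicle replicate 3 was past the value for all 3 Cxcr3 ligands. Cxcl9 was 85.1 CPM there and 14.0 to 23.0 CPM in the other vehicle livers, Cxcl10 was 11.4 CPM there and 2.97 to 4.79 CPM in the others, and Cxcl11 was 9.32 CPM there and 6.03 to 7.05 CPM in the others. That library was the highest of its group in 10 of the 27 members. Among the other vehicle livers, Cxcl12 was lowest in replicate 4 (271 CPM, the others 309 to 332 CPM), Ackr3 was 5.64 CPM in replicate 5 (the others 0.804 to 1.92 CPM), and Ccl27a was 7.89 CPM in replicate 6 (the others 4.32 to 5.35 CPM). In young livers, Cxcl1 was 12.6 CPM in replicate 1 (the others 2.88 to 6.18 CPM) and Ccr2 was 2.92 CPM in replicate 2 (the others 0.916 to 1.47 CPM).

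Ccr3, which was not tested because of low counts and was singled out after its values were seen, had 16.0 CPM (170 counts) in vehicle replicate 2, against 0 to 0.376 CPM in the other vehicle livers.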

How the results depend on the processing

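The 16 members called in vehicle against young livers stayed within 1.5 times of that count under all alternatives, whereas the counts of 2 in the other comparisons did not. In vehicle against young livers they were 14 to 18 without 1 library. The number tested changed in some settings, with 11 of 18 called on thinning, 12 of 23 with the 12 libraries alone and 22 of 44 with no filter. In ouabain against vehicle livers, members called were 4 in DESeq2, 1 in limma voom, 1 with the replicate block, 1 on thinning to the shallowest library, 0 without vehicle replicate 4 and ouabain replicate 5 together, and 0 to 6 without 1 library (0 without ouabain replicate 3, 4, 5 or 6 or vehicle replicate 1 or 3, and 6 without vehicle replicate 6). In ouabain against young livers they were 5 in DESeq2, 1 in voom, 1 with the block, 1 on thinning and 1 to 3 without 1 library (1 without young replicate 3). The cause was not tested.

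Over all genes, ouabain against vehicle gave 262 calls, 603 in DESeq2, 85 without vehicle replicate 4 and ouabain replicate 5, 153 on thinning and 69 to 642 without 1 library (ouabain replicate 6 and vehicle replicate 6). Vehicle against young gave 2733, 1800 on thinning and 2085 to 3061 without 1 library. Ouabain against young gave 160, 466 in DESeq2, 333 with the 12 libraries alone, 71 with the replicate block, 103 without vehicle replicate 4 and ouabain replicate 5, and 51 to 612 without 1 library (ouabain replicate 2 and young replicate 1).

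Same-numbered libraries of different groups did not deviate together (correlations -0.136 to 0.158, with 2, 1 and 0 of 6 libraries closest to their own number), so the numbers are not taken to pair the animals. The replicate block gave 241 calls in ouabain against vehicle and 2522 in vehicle against young livers, and the adjusted p was then 0.0635 for Ccr2 in ouabain against vehicle and 0.0526 for Ccl5 in ouabain against young livers.

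Log2 fold changes changed sign for Cxcl10 in ouabain against vehicle livers without vehicle replicate 3 (range without 1 library -0.51 to 0.0058), and in ouabain against young livers for Cxcl1 without young replicate 1 (range -0.38 to 0.13) and for Mmp12 on thinning (-0.41), without ouabain replicate 1 (-0.0014) and without young replicate 6 (-0.00056; range -0.0014 to 0.19), none of them called. Depth limits the rarest members, since 17 of 44 had too few counts to be tested.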
